A study of Homo sapiens with 6 samples.

Results

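The mitochondrial 3' tRFs are 44 of 3443 fragments counted in A375 cells, a melanoma line established from a human tumour, and held 610 of 126840 counts. A tRF is a piece of a transfer RNA, and a 3' tRF runs to the 3' end of the mature molecule. Members were the fragments that the table types as 3' tRF and whose sequence, read from the MINTbase identifier, exactly matched 1 of the 22 mitochondrial tRNA genes with CCA added. The table held 297 3' tRFs in all, and the other 253 matched no mitochondrial tRNA. Of 22 genes, 14 gave a member, and no member matched more than 1 gene or position.

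Small RNA from 3 wild-type libraries and 3 libraries of cells with a CRISPR/Cas9 knockout of DUS1L was compared, to ask which fragments differ when the enzyme is absent. DUS1L makes dihydrouridine in the D-loop of tRNA. Per the labels, knockout cells went through selection of clones and wild-type cells were kept in parallel without targeting. The number of clones behind the knockout libraries is not given in the sources used here, so a p-value here speaks of the spread among libraries, which need not be that among clones. Libraries held 15742 to 32754 counts, of which 108, 207 and 127 belonged to members in wild-type replicates 1, 2 and 3 and 49, 38 and 81 in knockout replicates 1, 2 and 3. Wild-type replicate 2, the smallest library, held the most member counts. The table has no row for the DUS1L mRNA, so its loss could not be checked here.

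Human mitochondrial DNA encodes 22 tRNAs that serve translation inside the organelle. They are cut out of long precursor RNAs at both ends, and the genome does not encode their last 3 bases: CCA is added afterwards by the nucleotidyltransferase TRNT1, and an amino acid can be attached only to a complete CCA end. A 3' tRF that carries CCA therefore comes from a tRNA that had been completed at that end, while a fragment ending in CC or C lacks 1 or 2 of these bases. How they came to be lacking was not tested. The genomic bases after each gene, which could encode a C, were not looked at, so a final C is only taken as added.

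Most member counts came from MT-TP, the mitochondrial tRNA for proline (mitochondrial chromosome, GRCh38, 15956 to 16023, minus strand), with 12 members and 461 counts, 75.6% of the total. Its abundant members are shown because they are 1 nested set, in which the first base shifts along the T arm and the last bases are complete or not. Capitals mark the added bases.
tRF-20-B2NZW7O6: aaagactttttctctgaCCA
tRF-19-DDZZ4YE2: aagactttttctctgaCCA
tRF-18-FIZ9WUD2: agactttttctctgaCCA
tRF-17-OZZ7ND2: gactttttctctgaCCA
tRF-16-EZY9X1B: actttttctctgaCCA
tRF-19-B2NZW7HV: aaagactttttctctgaCC
tRF-18-DDZZ4YV: aagactttttctctgaCC
tRF-17-FIZ9WUJ: agactttttctctgaCC
tRF-16-OZZ7NDD: gactttttctctgaCC
tRF-18-B2NZW7DR: aaagactttttctctgaC
tRF-17-DDZZ4Y1: aagactttttctctgaC
The first 5 start at positions 52 to 56 of the tRNA, counted from 1 at its first base, and end at position 71, the A of CCA. The next 4 start at positions 52 to 55 and end at position 70, and the last pair start at 52 and 53 and end at 69. The encoded part of the longest lies at chrM:15956-15972. The remaining MT-TP member, a form of 16 nt ending in C, had 1 count.

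Outside MT-TP, the genes with most member counts were MT-TF (phenylalanine, 577 to 647, plus strand), MT-TT (threonine, 15888 to 15953, plus strand, the neighbour of MT-TP on the opposite strand) and MT-TW (tryptophan, 5512 to 5579, plus strand). The member with most counts of each is shown for its different sequence before the same added end.
tRF-16-2RJO01B: caccccataaacaCCA
tRF-18-NZ8O6FD2: ctttttccaaggacaCCA
tRF-17-HIUNWV2: atacttaatttctgCCA
The MT-TF, MT-TT and MT-TW forms above had 26, 26 and 9 counts over the 6 libraries. Over all their members, MT-TT had 45 counts, MT-TF had 39 and MT-TW had 20.

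The members were short and lay at the 3' end of the molecule, away from the D-loop. Of 44 members, 43 were 16 to 20 nt long, and all but 1 began at position 46 or later. The exception, a single read of 50 nt from MT-TC (cysteine) in knockout replicate 3, began at position 18. Counts peaked at 18 nt with 177 and at 16 nt with 159. The table holds no fragment under 16 nt, so shorter forms could not be seen. Member reads were 60.4% A and T, weighted by counts, against 33.8% for the other 3' tRFs.

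The remaining genes with a member had few counts. MT-TL1, 1 of the 2 leucine tRNAs, had 12, MT-TN (asparagine) and MT-TV (valine) had 7 each, MT-TS2 (serine) and MT-TY (tyrosine) 4 each, MT-TC and MT-TL2 3 each, MT-TQ (glutamine) and MT-TS1 2 each, and MT-TM (methionine) had 1. The 8 genes with 0 member counts were MT-TA, MT-TD, MT-TE, MT-TG, MT-TH, MT-TI, MT-TK and MT-TR. A count of 0 over all libraries allows up to 23.7 counts per 1000000 counts, by counting error only.

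Several genes with few or no member counts had many counts of other fragment types. MT-TM had 2715 counts over all types, of which the single 3' count was 0.0368%. MT-TF had 1328, of which 2.94% were 3' tRFs, and MT-TH and MT-TE had 568 and 401 with no 3' tRF. For MT-TP 68.4% of 674 counts were 3' tRFs, and for MT-TT 80.4% of 56. MT-TP and MT-TT thus gave mainly 3' tRFs, and MT-TM and MT-TH gave other types.

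As a group, the members took 0.330%, 1.31% and 0.689% of all counts in wild-type replicates 1, 2 and 3 and 0.235%, 0.237% and 0.351% in knockout replicates 1, 2 and 3. The highest knockout library lay just above the lowest wild-type library, so the groups overlapped. The means were 0.778% ± 0.499 and 0.275% ± 0.0664 (± SD over 3 libraries), for which the two-sided exact permutation test gave p = 0.2, or 0.333 when adjusted over 5 such comparisons. With 3 libraries a group this test cannot go below 0.1. Without wild-type replicate 2 the difference went from -0.503 to -0.235 points.

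Within mitochondrial fragments, 3' tRFs took a smaller part of the counts in every knockout library. They made up 13.6% ± 6.99 of mitochondrial counts in wild-type cells and 3.53% ± 1.21 in knockout cells (± SD over 3 libraries), with values of 8.24% to 21.5% and of 2.69% to 4.92% (exact permutation test, p = 0.1, adjusted 0.25). The denominator includes the 5' fragments of MT-TM, which rose, as given below, and their part in this difference was not tested. Without wild-type replicate 2 the difference went from -10.1 to -6.16 points.

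The part of the members among all 3' tRF counts did not separate the groups. Of 23 tested sums of other 3' tRFs, from nuclear genes or of unmatched parent, 19 were lower (edgeR). Members made up 5.14% ± 3.09 of all 3' tRF counts in wild-type cells and 5.05% ± 0.871 in knockout cells (± SD over 3 libraries, exact permutation test, p = 1, adjusted 1). In wild-type replicates 1, 2 and 3 the values were 2.34%, 8.46% and 4.64%, so the wild-type libraries spanned the knockout range of 4.31% to 6.01%. The difference of -0.0909 points became 1.57 points without wild-type replicate 2, 0.0194 points without knockout replicate 1 and 0.279 points without knockout replicate 2, so no direction can be given.

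Summed by gene, MT-TP fell. Its 3' tRFs had 82, 171 and 91 counts in wild-type replicates 1, 2 and 3 and 31, 27 and 59 in knockout replicates 1, 2 and 3. Counts were scaled to counts per 1000000 counts with TMM factors fitted on single fragments (CPM). The means were 6171 ± 4556 in wild-type cells and 1890 ± 572 in knockout cells (± SD over 3 libraries). The groups did not overlap in CPM, and wild-type replicate 2 was the highest. Per 1000000 library counts without TMM factors, wild-type replicate 1 was at 2504 and knockout replicate 3 at 2558, so the groups then overlapped. The log2 fold change, knockout minus wild-type, was -1.62 (SE 0.517, adjusted p = 0.0293 by edgeR's quasi-likelihood test, after Benjamini and Hochberg). Of 78 sums tested, by parent and type over the whole table, 32.1% were lower, and MT-TP was the only mitochondrial 3' sum with enough counts to be tested. The call ended when wild-type replicate 2 was left out (log2 fold change -0.78, adjusted p = 0.0534 in edgeR), and also on leaving out knockout replicate 1 (adjusted p = 0.127), 2 (0.102) or 3 (0.0621).

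By end form, the fall of MT-TP was called for the fragments with the full CCA end and not for those ending in CC. Those ending in CCA had 53, 146 and 68 counts in wild-type replicates 1, 2 and 3 and 13, 16 and 30 in knockout replicates 1, 2 and 3, with every knockout library below every wild-type library. The log2 fold change was -2.14 (SE 0.570, adjusted p = 0.0119 in edgeR), where 32.6% of the 86 sums by parent, type and end were lower. Those ending in CC had 23, 21 and 18 counts in wild-type cells and 16, 9 and 24 in knockout cells, which overlapped. Their mean CPM was 1014 ± 331 in wild-type cells and 785 ± 252 in knockout cells (± SD over 3 libraries). Their log2 fold change was -0.13 (SE 0.348, adjusted p = 0.758 in edgeR), and its sign changed with DESeq2's size factors (0.16), DESeq2's Wald test (0.14), upper quartile scaling (0.18), no low-count filter (0.093) and on leaving out wild-type replicate 2 (0.17) or knockout replicate 2 (0.27). Those ending in C had 6, 4 and 5 counts in wild-type cells and 2, 2 and 5 in knockout cells, with overlap in CPM. Their mean CPM was 237 in wild-type cells and 144 in knockout cells, and they were too few to pass the low-count filter. The CCA call ended without knockout replicate 1 (adjusted p = 0.0647 in edgeR) or 2 (0.0664). Without wild-type replicate 2 its log2 fold change was -1.15, with adjusted p = 0.0207 in edgeR.

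The balance of the end forms was lower in every knockout library. The log2 ratio of CCA to CC counts of MT-TP was 1.20, 2.80 and 1.92 in wild-type replicates 1, 2 and 3 and -0.30, 0.83 and 0.32 in knockout replicates 1, 2 and 3. Every knockout library was below every wild-type library, a difference of -1.69 in means (exact permutation test, p = 0.1, the smallest possible, and 0.164 adjusted over 18 comparisons added after the values were seen). The shortest CCA form has no visible CC partner, since that partner would be 15 nt long. With the CCA form of 16 nt left out, the difference was -1.64, again with no overlap.

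By starting position, all 5 CCA forms of MT-TP had a lower mean in the knockout. The form from position 53, tRF-19-DDZZ4YE2, the member with most counts, had 13, 45 and 18 counts in wild-type cells and 4, 4 and 10 in knockout cells. The form from position 52, tRF-20-B2NZW7O6, had 13, 21 and 13 counts against 3, 1 and 3, which is the clearest separation among them. The form from position 54, tRF-18-FIZ9WUD2, had 14, 19 and 16 against 4, 5 and 8.

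The other CCA forms start nearer the 3' end. From position 55, tRF-17-OZZ7ND2 had 7, 8 and 4 counts against 0, 1 and 3. From position 56, tRF-16-EZY9X1B had 6, 53 and 17 against 2, 5 and 6, where wild-type replicate 2 held most of the counts. In CPM, 4 of these 5 forms did not overlap between groups, while tRF-16-EZY9X1B did. For tRF-19-DDZZ4YE2 the gap was narrow, with wild-type replicate 1 at 447 and knockout replicate 3 at 432. Without TMM factors that form overlapped too, at 13 of 32754 counts in wild-type replicate 1 and 10 of 23063 in knockout replicate 3. Among the 13 members with 10 or more counts in all, 8 ended in CCA. In CPM, 5 of the 13 lay lower without overlap, as did 20.1% of all 728 fragments with such counts. These 5 all ended in CCA, and 4 of them are nested forms of MT-TP, so they are not separate observations. Of the members with such counts ending in CC (3) or C (2), 0 were without overlap. The 728 cover every fragment type, and the share among 3' tRFs alone was not counted.

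Of the 4 CC forms of MT-TP, 3 also had a lower mean CPM in the knockout, and the groups of these 3 overlapped. From position 52, tRF-19-B2NZW7HV had 2, 4 and 0 counts in wild-type cells and 1, 1 and 2 in knockout cells. From position 53, tRF-18-DDZZ4YV had 15, 14 and 8 counts against 7, 4 and 10. From position 54, tRF-17-FIZ9WUJ had 6, 3 and 10 against 7, 2 and 9, which overlap fully. From position 55, tRF-16-OZZ7NDD had 0 counts in every wild-type library and 1, 2 and 3 in the knockout libraries. That form was the 1 member of MT-TP ending in CC whose groups did not overlap, and with no low-count filter it did not pass the threshold (adjusted p = 0.337 in edgeR). It held 6 counts in all, and the share of fragments lying higher without overlap was not counted.

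No single member passed the low-count filter at the minimum count of 10, which is scaled to each library's depth and so asks for more counts in a larger library. At that setting 28.1% of the 235 fragments tested were lower. With a minimum count of 5, 7 members were tested and 4 were lower (edgeR), where 16.6% of 361 fragments were lower. These 4 were MT-TP forms ending in CCA. In knockout cells tRF-20-B2NZW7O6 had 3, 1 and 3 counts, so it passed this filter through its wild-type libraries only. A member can thus enter the test because it is high in wild-type cells, so the 4 of 7 cannot be weighed against that share. The log2 fold changes were -2.62 for tRF-20-B2NZW7O6 (SE 0.612, adjusted p = 0.00709 in edgeR), -2.11 for tRF-19-DDZZ4YE2 (adjusted p = 0.0313), -1.43 for tRF-18-FIZ9WUD2 (adjusted p = 0.0375) and -2.62 for tRF-16-EZY9X1B (adjusted p = 0.0407). The CC forms tRF-18-DDZZ4YV and tRF-17-FIZ9WUJ had -0.69 (SE 0.457, adjusted p = 0.241 in edgeR) and 0.06 (SE 0.559, adjusted p = 0.929 in edgeR). The MT-TF form tRF-16-2RJO01B had -0.82 (SE 0.779, adjusted p = 0.412 in edgeR).

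MT-TP fragments that stop at the last encoded base, with no added base at all, are typed as internal in the table and are not members. The pair found starts at positions 52 and 53, like the longest members, and had 17, 4 and 10 counts in wild-type cells and 8, 6 and 14 in knockout cells. In CPM this was 442 ± 162 and 451 ± 135 (± SD over 3 libraries), with overlap. All internal fragments of MT-TP together had a log2 fold change of -0.20 (SE 0.325, adjusted p = 0.628 in edgeR).

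Over all members together, every knockout library had a lower share of counts ending in CCA than every wild-type library, and MT-TP gave most of these counts. It was 71.3%, 87.0% and 79.5% in wild-type replicates 1, 2 and 3 (95% Wilson intervals 62.1% to 79.0%, 81.7% to 90.9% and 71.7% to 85.6%). In knockout replicates 1, 2 and 3 it was 61.2%, 65.8% and 55.6% (47.2% to 73.6%, 49.9% to 78.8% and 44.7% to 65.9%). Intervals of some single libraries overlapped between the groups, while that of wild-type replicate 2 lay above every knockout interval. The means were 79.3% ± 7.83 and 60.9% ± 5.13 (± SD over 3 libraries), a difference of -18.4 points (exact permutation test, p = 0.1, adjusted 0.25). Restricted to starts from which the C form would still have 16 nt, the means were 71.0% ± 7.29 and 49.8% ± 6.84, without overlap. For MT-TP alone the share was 74.9% ± 10.4 in wild-type cells and 50.7% ± 8.66 in knockout cells, without overlap (exact permutation test, p = 0.1, adjusted 0.164 over the 18 added comparisons). For the other mitochondrial genes together it was 92.8% ± 1.45 and 81.5% ± 13.1, with overlap (exact permutation test, p = 0.4, adjusted 0.45). Their knockout replicates 1, 2 and 3 were at 94.4%, 81.8% and 68.2%, from 18, 11 and 22 counts, so the first equalled the highest wild-type library.

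In the other 3' tRFs the CCA share differed by less. It was 87.6% ± 2.13 in wild-type cells and 85.8% ± 0.605 in knockout cells (± SD over 3 libraries), and the groups overlapped (exact permutation test, p = 0.3, adjusted 0.386). The member share minus this share was -17.2, -2.20 and -5.66 points in wild-type replicates 1, 2 and 3 and -25.1, -20.2 and -29.6 points in knockout replicates 1, 2 and 3. Every knockout value lay below every wild-type value (exact permutation test, p = 0.1, adjusted 0.164 among the same 18 comparisons). Among the sums by end, 17 of 22 of the other CCA sums and 6 of 8 of the other CC sums were lower, at medians of -1.34 and -1.17 (log2 fold change). Whether the CC sum of MT-TP, at -0.13, differs from those CC sums was not tested.

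The genes other than MT-TP held 149 counts together, 26, 36 and 36 in wild-type replicates 1, 2 and 3 and 18, 11 and 22 in knockout replicates 1, 2 and 3. As 1 pooled sum, made after the values were seen, their log2 fold change was -0.88 (SE 0.400, adjusted p = 0.108 in edgeR), where 30.4% of 79 sums were lower. Their fragments ending in CCA had -0.95 (SE 0.398, adjusted p = 0.0732 in edgeR), where 32.2% of 87 sums were lower. Without wild-type replicate 1 these passed the threshold, with log2 fold changes of -1.29 (adjusted p = 0.0192 in edgeR) and -1.26 (0.0168). Their fragments ending in CC or C had 2, 2 and 3 counts in wild-type cells and 1, 2 and 7 in knockout cells. These overlapped in CPM, and knockout replicate 3 held most of the knockout counts.

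Gene by gene, 9 of the 14 genes with a member had a lower mean CPM in the knockout. The share of all sums with a lower mean was not counted, so no weight can be given to this number. The 9 include MT-TL2, MT-TS1 and MT-TM, with 3, 2 and 1 counts in all. MT-TT had 15, 6 and 12 counts in wild-type cells and 8, 2 and 2 in knockout cells, a log2 fold change of -1.25 with no low-count filter (SE 0.554, adjusted p = 0.144 in edgeR). MT-TF had 3, 12 and 12 against 2, 3 and 7, with -1.10 (SE 0.580, adjusted p = 0.252 in edgeR). MT-TW had 1, 8 and 4 against 4, 1 and 2, with -0.80 (SE 0.798, adjusted p = 0.512 in edgeR). None of the 3 passed the threshold.

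In 3 genes the groups did not overlap in CPM. They were MT-TP and MT-TT, lower in the knockout, and MT-TS2, with 0 counts in wild-type cells and 2, 1 and 1 in knockout cells. Over all 369 sums by parent and type, 16.3% lay lower without overlap, a share that MT-TP and MT-TT among the 14 genes did not exceed. MT-TS2 rests on 4 counts, and the share of sums lying higher without overlap was not counted. The separation of MT-TT was narrow: per 1000000 library counts without TMM factors, wild-type replicate 2 was at 381 and knockout replicate 1 at 384, so the groups then overlapped. The groups of MT-TP also overlapped without TMM factors, as given above.

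By length, all forms from 16 to 20 nt had a lower mean in the knockout, and 1 of the 4 lengths tested was called. Fragments of 18 nt had 46, 45 and 35 counts in wild-type cells and 17, 11 and 23 in knockout cells (log2 fold change -1.33, SE 0.311, adjusted p = 0.0174 in edgeR), where 8.57% of 70 sums by origin, type and length were lower. For 16, 17 and 19 nt the log2 fold changes were -1.47 (SE 0.731, adjusted p = 0.181 in edgeR), -1.02 (SE 0.373, 0.0920) and -1.81 (SE 0.705, 0.101). The form of 20 nt was tRF-20-B2NZW7O6 alone. The call at 18 nt ended without knockout replicate 1 (adjusted p = 0.0840 in edgeR) or 2 (0.0611).

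The mean length of member reads was 17.7 ± 0.188 nt in wild-type cells and 17.6 ± 0.307 nt in knockout cells (± SD over 3 libraries, exact permutation test, p = 0.4, adjusted 0.5). Without the single read of 50 nt the knockout mean was 17.4 ± 0.139 nt, below every wild-type library. A fragment ending in CC is 1 nt shorter than the CCA form from the same start, so length and end form are not separate measures. The other 3' tRFs averaged 17.1 nt in both groups.

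The other fragment types of the mitochondrial tRNA genes changed in both directions. Of 18 sums of their 5' and internal types tested, 3 were higher and 1 was lower. The median log2 fold change of the 18 was 0.24, beside -0.24 for all 78 sums, of which 14.1% were higher. The highest was the 5' tRFs of MT-TM (2.87, adjusted p = 3.78e-04 in edgeR), a gene with 1 member count. The 5' tRFs of MT-TQ (0.90, adjusted p = 0.0123 in edgeR) and the internal fragments of MT-TH (1.05, adjusted p = 0.00388 in edgeR) were also higher, and the 5' tRFs of MT-TE were lower (-1.94, adjusted p = 0.0166 in edgeR). Of the 23 sums of other 3' tRFs, 0 were higher. Their median log2 fold change was -1.41, beside -1.62 for the 3' sum of MT-TP. Whether these differ was not tested.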

How the data were processed

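The authors deposited raw read counts per fragment in each library. The series' design text names MINTmap for assigning reads to tRNA and DESeq2 for the authors' own test. FastQC, cutadapt and GRCh38 (hg38) appear in the submitters' processing notes, with no filters given. A size selection favours fragments of certain lengths, and a modified base can stop reverse transcription, so counts compare 1 fragment between libraries better than different fragments.

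All 3443 identifiers were decoded and encoded back without change. Genes and coordinates are from GENCODE v29. No nuclear tRNA set was searched, so a nuclear copy of a member sequence cannot be told apart. In GENCODE transcripts 1 member, with 2 counts, matched a retained intron of VPS51.

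Counts were summed into tables without overlap that cover every fragment: by mitochondrial gene and type (other fragments by type and a shared stretch of 16 nt), also by end, and by origin, type and length. Each was filtered by filterByExpr (minimum count 10), scaled by TMM and tested two-sided with edgeR 4.0.16 (R 4.3.3), with Benjamini-Hochberg adjustment at 0.05. CPM values used the TMM factors fitted on single fragments throughout. Each fit of sums used factors of its own, so CPM means and log2 fold changes of sums need not match. The log2 fold change over the square root of F was taken as its SE. Shares were compared by exact permutation (scipy 1.17.1). On simulated counts of 78 sums by parent and type, 61.5% of 2-fold and 100% of 4-fold changes were called. Each of these rates rests on 13 sums, and all sums were drawn with 1 common dispersion, so the rates need not hold for MT-TP. Every pair of replicates differed beyond sampling noise (chi-square over degrees of freedom at least 3.36). Intervals and limits cover counting error only.

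Members and lists were chosen with earlier results of these data known. Named genes were those whose 3' sum was tested and others by total count; single fragments were those tested and the most abundant. The other MT-TP forms, the members of MT-TF, MT-TT and MT-TW, and fragments ending at the last encoded base were chosen after their values were seen. Alternatives were other scalings, filters, DESeq2 1.42.0, a replicate block and leaving out each library.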

Additional observations from a re-analysis of the deposited data

How the results depend on the processing

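The fall of MT-TP and of its CCA forms kept direction under all alternatives run; over the libraries left out in turn, the log2 fold change of the MT-TP sum ran from -2.12 to -0.78 and that of the CCA forms from -2.53 to -1.15, and calls ended as given above. The CC forms ran from -0.37 to 0.27 and were called in none; their sign turned with DESeq2's size factors (0.16), upper quartile scaling (0.18), DESeq2's Wald test (0.14) and no low-count filter (0.093). The count of lengths called lower (1) was 3 with upper quartile scaling, 2 with DESeq2's Wald test, 3 with no low-count filter, 2 with a minimum count of 5 and 0 with the replicate block, and ran from 1 to 5 over left-out libraries. The count of members called lower (0 of 0 tested) was 3 of 44 with no low-count filter and 4 of 7 with a minimum count of 5, and ran from 0 to 4. The mitochondrial share of 3' tRF counts ran from -1.49 to 1.57 points. With the replicate block, MT-TP had a log2 fold change of -1.41 (adjusted p = 2.42e-05 in edgeR) and its CCA forms -1.88 (2.38e-06), while the call at 18 nt ended (0.0834). The labels do not say whether same-numbered libraries were paired. Deviations of same-numbered libraries correlated at 0.371, -0.0703 and 0.107, and those of differently numbered ones at -0.273 to 0.186, which does not settle it. With 38 to 207 member counts per library, depth limits every result on a single gene. This includes MT-TP, which had 31, 27 and 59 counts in knockout replicates 1, 2 and 3.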

Other observations

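Fragments that stop at the last encoded base of a mitochondrial tRNA, before any of CCA, numbered 54 with 248 counts, all typed as internal. Their part of all counts was 0.192% ± 0.0524 in wild-type cells and 0.183% ± 0.0317 in knockout cells (± SD over 3 libraries, exact permutation test, p = 0.8, adjusted 0.8), with overlap. MT-TV gave 122 of these counts and MT-TE gave 36, while the 3' tRFs of MT-TV had 7 counts and those of MT-TE had 0. The most abundant of each is shown for comparison with the members, which carry added bases at this end.
tRF-18-YDZDL90L: ttaacttgaccgctctga
tRF-19-9P8WQ0EB: tgtagtccgtgcgagaata
The first is from MT-TV, with 24 counts, and the other is from MT-TE, with 13. The MT-TV fragments had 40, 6 and 17 counts in wild-type replicates 1, 2 and 3 and 26, 11 and 22 in knockout replicates 1, 2 and 3. Those of MT-TE had 10, 7 and 8 against 2, 2 and 7, with every knockout library below every wild-type library in CPM. The gap was narrow, with wild-type replicate 1 at 344 and knockout replicate 3 at 302. For comparison, 16.3% of all 369 sums by parent and type lay lower without overlap.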
